A study of Mus musculus with 12 samples.

Results

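The genes described here are 35 genes of the amino acid response and of tRNA charging, found by gene symbol among the 18269 genes of a normalised RNA-seq table from mouse embryoid bodies. They comprise 6 stress transcription factors and regulators, 10 enzymes of amino acid synthesis, 7 amino acid transporters and 12 cytosolic aminoacyl-tRNA synthetases. All 35 were in the table, and all passed the filter on low values that left 17000 genes for testing. Embryoid bodies are clusters of cells that form when embryonic stem cells leave self-renewal in suspension and start to differentiate. There were 4 groups with 3 samples each: Gcn5-/- cells of the line 4C2 at day 5 (null day 5), Gcn5fx/fx cells of the line 4_1 at day 5 (floxed day 5), the same Gcn5-/- line at day 3 (null day 3) and the same Gcn5fx/fx line at day 3 (floxed day 3). All were of the strain C57BL/6. Gcn5, whose gene symbol is Kat2a, is a histone acetyltransferase, and in the floxed line the gene is flanked by recombination sites and still present. Each genotype was 1 line, so genotype and line cannot be told apart. The series' own text speaks of duplicates where the labels give 3 samples, and nothing says that samples came from separate cultures, so p-values measure the spread between these samples, which may be technical.

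When an amino acid runs short, uncharged tRNA activates the kinase GCN2 (gene symbol Eif2ak4), which shares only part of its name with Gcn5. GCN2 phosphorylates the translation factor eIF2, general translation slows, and the mRNA of the transcription factor Atf4 is translated more. Atf4 binds composite elements in the promoters of genes for amino acid synthesis, amino acid uptake and tRNA charging, and of stress regulators such as Ddit3, Trib3 and Chac1. Dividing stem cells have a high need for amino acids and for the one-carbon units that serine gives.

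The promoters of the genes were searched for the core of that composite element, TGATGNAA, on both strands, because the letters are present in many known Atf4 targets. RefSeq windows on GRCm38.p6, from 250 bases before to 50 bases after each gene's start, were matched for 27 of the 35 genes. The letters were found in 12 of these 27 genes (44.4%), against 4.51% of all 27025 genes with a window. The genes were listed as genes of the amino acid response, so a share above that of all genes is no independent result. The longer form TGATGNAAT, which contains the first motif and so overlaps every match of its own, was in 4 of the 27 (14.8%), against 1.08% of all genes. The 12 genes were Trib3, Chac1, Asns, Pycr1, Got1, Slc7a11, Slc1a4, Aars, Gars, Iars, Tars and Yars. Of the 17 genes with a window that were lower in null embryoid bodies at day 5, 6 held the letters, and of the 10 with a window that were not called at day 5, 6 did. The windows of these 6 lower genes let the matches be seen in place. They are printed 5′ to 3′ on the strand of the gene, and capitals mark TGATGNAA or its reverse complement.
Chac1: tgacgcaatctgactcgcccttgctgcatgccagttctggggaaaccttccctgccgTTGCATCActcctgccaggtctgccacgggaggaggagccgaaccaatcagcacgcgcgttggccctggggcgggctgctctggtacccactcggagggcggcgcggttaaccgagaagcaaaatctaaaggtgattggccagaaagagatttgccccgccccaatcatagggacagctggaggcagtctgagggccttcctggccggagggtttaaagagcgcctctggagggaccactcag
Asns: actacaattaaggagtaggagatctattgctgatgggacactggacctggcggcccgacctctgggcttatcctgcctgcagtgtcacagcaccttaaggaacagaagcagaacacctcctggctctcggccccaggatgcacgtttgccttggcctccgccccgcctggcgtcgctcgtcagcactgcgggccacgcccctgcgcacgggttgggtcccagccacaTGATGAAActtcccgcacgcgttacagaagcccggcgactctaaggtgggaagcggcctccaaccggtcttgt
Aars: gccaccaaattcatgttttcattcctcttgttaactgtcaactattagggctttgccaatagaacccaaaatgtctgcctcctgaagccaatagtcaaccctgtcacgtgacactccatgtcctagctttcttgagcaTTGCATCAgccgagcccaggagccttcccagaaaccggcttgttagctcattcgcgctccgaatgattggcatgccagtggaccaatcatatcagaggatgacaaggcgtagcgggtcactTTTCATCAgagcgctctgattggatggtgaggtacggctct
Gars: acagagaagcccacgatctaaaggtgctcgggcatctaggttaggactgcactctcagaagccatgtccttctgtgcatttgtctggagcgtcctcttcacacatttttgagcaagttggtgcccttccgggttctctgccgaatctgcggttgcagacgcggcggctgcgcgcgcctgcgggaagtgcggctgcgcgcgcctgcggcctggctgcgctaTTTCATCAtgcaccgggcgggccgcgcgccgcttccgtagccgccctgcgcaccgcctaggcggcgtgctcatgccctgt
Tars: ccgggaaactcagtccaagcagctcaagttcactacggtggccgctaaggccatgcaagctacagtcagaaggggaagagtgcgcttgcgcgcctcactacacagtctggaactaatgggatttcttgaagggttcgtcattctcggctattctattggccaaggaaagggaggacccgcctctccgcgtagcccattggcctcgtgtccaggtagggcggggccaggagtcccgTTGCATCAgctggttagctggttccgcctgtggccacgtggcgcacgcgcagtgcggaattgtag
Yars: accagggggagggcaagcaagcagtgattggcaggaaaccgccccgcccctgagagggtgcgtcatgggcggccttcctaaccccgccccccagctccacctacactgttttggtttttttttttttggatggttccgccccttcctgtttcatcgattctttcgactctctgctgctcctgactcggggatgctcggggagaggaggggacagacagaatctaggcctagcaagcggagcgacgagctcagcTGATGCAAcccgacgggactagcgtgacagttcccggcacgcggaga
The Chac1 window is chr2:119350992-119351291 on the plus strand, and its match begins 193 bases before the start. The Asns window is chr6:7693160-7693459 on the minus strand, with a match beginning 23 bases before the start. Aars, at chr8:111033592-111033891 on the plus strand, holds a match from 112 bases before the start and a further one from 9 bases after it. The Gars window is chr6:55037751-55038050 on the plus strand and that of Tars is chr15:11399609-11399908 on the minus strand, with matches from 30 and from 15 bases before the start. The Yars window, chr4:129189653-129189952 on the plus strand, has its match from 3 bases after the start. A match is a run of letters in a window and was not tested as a binding site.

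Values are given as normalised reads, which are read counts divided by a size factor of each library. Null libraries held 18022071 to 26803369 reads and floxed libraries 23090915 to 29446068 reads. Kat2a had 739, 852 and 860.2 normalised reads in null libraries at day 5, against 2161, 2391 and 2071 in floxed libraries, and 649, 614 and 840.5 in null libraries at day 3, against 2077, 2226 and 2379.8 in floxed libraries. Its log2 change, null minus floxed, was -1.43 ± 0.11 at day 5 and -1.68 ± 0.11 at day 3 (SE, limma, adjusted p = 1.6e-05 and 1.01e-05). Chromosome 11, which holds Kat2a, Slc1a4 and Pycr1, stood higher in the null line as a whole, by a median log2 of 0.33 at day 5 and 0.36 at day 3 over 1332 genes. All 6 markers of pluripotent and epiblast cells were in the table and above 0 (Pou5f1, Nanog, Sox2, Fgf5, Otx2 and Dnmt3b). Their summed level was 11423 to 14488 in null and 15768 to 21603 in floxed libraries at day 5, and 31074 to 41217 in null and 35586 to 48029 in floxed libraries at day 3. Of these 6 markers, 5 were lower in null embryoid bodies at day 5 and 2 at day 3 (limma, adjusted p under 0.05), where 13.5% and 2.03% of all genes tested were lower. The 3 neural markers (Sox1, Pax6 and Nes) summed to 5058 to 6739 in null and 7065 to 11251 in floxed libraries at day 5, with 0 of the 3 called by limma at either day and 1 lower at an unadjusted p under 0.05 at each, while the sums of mesoderm, extraembryonic endoderm, fibroblast and red cell markers overlapped between the lines at each day. In bulk RNA, fewer cells of a type and less RNA per cell cannot be told apart.

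At day 3 the library numbered 3 stood apart for these genes in both lines. It was the lowest of the group for 31 of 35 genes in null and for 34 of 35 in floxed embryoid bodies, against 31.4% and 37.2% of all genes tested. The median distance of the 35 genes from the group mean in that library was -0.18 log2 units in null and -0.19 in floxed embryoid bodies. At day 5 the library numbered 3 was the lowest for 11 of 35 genes in null and for 25 of 35 in floxed embryoid bodies, against 31.7% and 33.7% of all genes tested, so that it stood apart for these genes in the floxed line. The widest spread was that of Slc7a11, the light chain of the cystine and glutamate exchanger. It had 204, 422 and 39.3 normalised reads in null libraries at day 3, against 372, 445 and 57.1 in floxed libraries, and 70.1, 82.7 and 26.7 in null libraries at day 5, against 170.3, 121 and 70.7 in floxed libraries. At day 5 its log2 change, null minus floxed, was -1.06 ± 0.84, a standard error that takes no account of the library numbers, and limma did not call it (adjusted p = 0.387). It was lower in each null library than in the floxed library of the same number, and a fit of the 6 day 5 libraries with the number as a block called it lower (adjusted p = 0.00933). The fit of all 12 libraries with that block did not call Slc7a11 at day 5 (adjusted p = 0.0530).

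**Figure D1:**
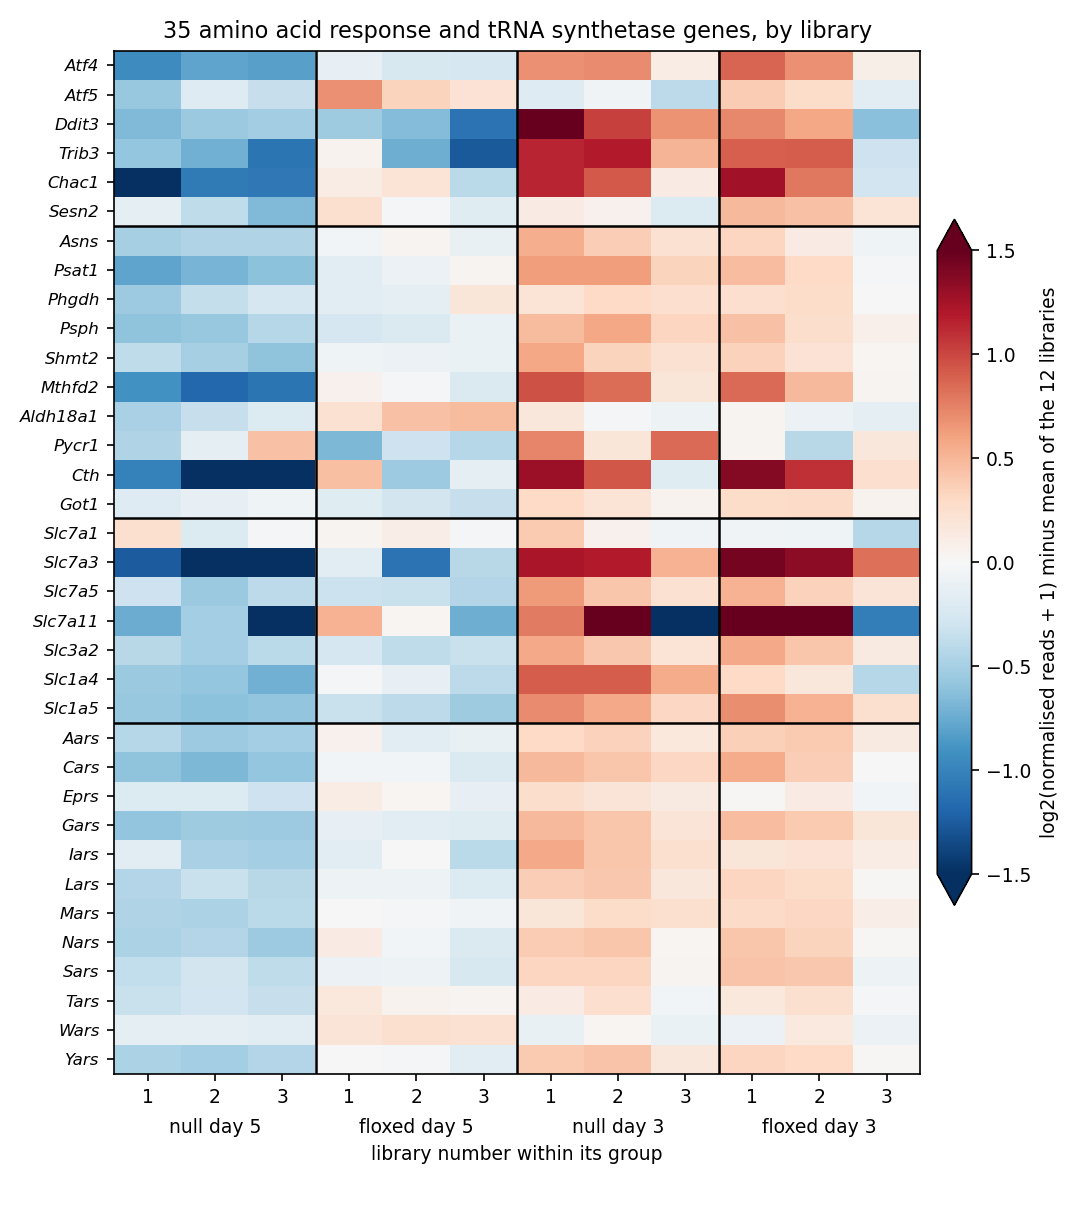
Heat map of the 35 genes (rows, by role) in the 12 libraries (columns, by group), as log2(normalised reads + 1) minus the gene's mean over all libraries, with the colour held at 1.5 in either direction. The null day 5 columns are the lowest for most genes, and the day 3 columns numbered 3 are paler than the other 2 of their group.

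Together the 35 genes took 0.397%, 0.395% and 0.397% of the reads in null libraries at day 5, against 0.497%, 0.485% and 0.470% in floxed libraries. At day 3 they took 0.657%, 0.645% and 0.554% in null libraries, against 0.637%, 0.603% and 0.512% in floxed libraries. The share was thus lower in every null library than in any floxed library at day 5, and the lines overlapped at day 3. Per kilobase of exon, Gars had the highest level of the 35 genes in each of the 4 groups, with a mean of 2789 normalised reads in null and 3687 in floxed embryoid bodies at day 5. Slc7a11 had the lowest, with 6.08 and 12.2 per kilobase in the same groups.

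At day 5 most of the genes were lower in null embryoid bodies. Of the 35 genes, 23 fell and none rose (limma on log2 values with Benjamini-Hochberg adjustment over 17000 genes, adjusted p under 0.05), where 13.5% of all genes tested were lower and 13% higher (26.5% in either direction). At an unadjusted p under 0.05, 24 were lower and 0 higher, where 6623 of the 17000 genes tested passed in either direction. On recovered reads, edgeR called 22 lower and 0 higher, where 2155 of all 17000 genes were lower and 2335 higher. DESeq2 called 24 lower and 0 higher, where 2530 of 16991 genes were lower and 2394 higher. The median log2 change of the 35 genes was -0.41, against -0.02 for all genes tested, and 32 of the 35 changes were below 0, against 52% of all. In 26 of the 35 genes every null library lay below every floxed library, which held for 22.2% of all genes tested. The 35 genes were chosen with earlier results of these data known, so their counts are described against all genes and were not tested. The synthetases gave the most even pattern, with 10 of 12 lower. Of the synthesis enzymes, 8 of 10 were lower, of the stress regulators 4 of 6, and of the transporters 1 of 7. The lower sum of pluripotent markers at day 5 moved with these falls, and its part in them was not tested.

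Among the stress regulators, Atf4, the transcription factor at the head of the response, had 2092, 2317 and 2279 normalised reads in null libraries at day 5, against 3686, 3392 and 3369.7 in floxed libraries. Every null library was below every floxed library, and the log2 change was -0.64 ± 0.18 (adjusted p = 0.0202). Atf5, a related factor that is translated under the same control, had 186, 243 and 218 in null libraries and 447, 351 and 324 in floxed libraries. It fell by 0.78 ± 0.17 on the log2 scale (adjusted p = 0.00627), again without overlap. Chac1, an enzyme that breaks down glutathione and a known target of Atf4, had 58.8, 94.4 and 93.6 in null libraries, against 214, 229 and 149 in floxed libraries. Its log2 change of -1.26 ± 0.36 (adjusted p = 0.0219) was the largest of the 6 regulators. Sesn2, a stress-induced inhibitor of mTORC1, had 2120.4, 1793 and 1477 in null libraries, against 2758, 2305 and 2058 in floxed libraries, so that 1 null library lay within the floxed range. Its log2 change was -0.41 ± 0.14 (adjusted p = 0.0489). Ddit3, the factor CHOP that promotes cell death under lasting stress, averaged 145 ± 7.17 in null and 129 ± 25.8 in floxed embryoid bodies (SD, n = 3), and Trib3, a pseudokinase that dampens Atf4, averaged 193 ± 34.6 and 227 ± 106 in null and floxed embryoid bodies. Neither was called (adjusted p = 0.707 for Ddit3 and 0.794 for Trib3).

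The calls of Atf4 and Chac1 depended on single libraries, and that of Sesn2 on libraries and on other settings. Atf4 was no longer called without null day 5 replicate 1 (adjusted p = 0.0630) or floxed day 5 replicate 1 (0.0636), and Chac1 without null day 5 replicate 1 (0.0820), floxed day 5 replicate 1 (0.0659) or replicate 2 (0.0635). Sesn2 lost its call without replicate 1 or 2 of null day 3, of floxed day 3 or of floxed day 5, or without null day 5 replicate 2 or 3, with adjusted p between 0.0555 and 0.190. It also lost the call with edgeR (0.0585), TMM scaling (0.0571), upper-quartile scaling (0.0811), a pseudocount of 0.1 (0.0522), no filter (0.0504), the 6 day 5 libraries fitted alone (0.0837) and chromosome 11 centred (0.0517) or left out (0.0523).

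Of the synthesis enzymes, those on the route from serine to one-carbon units fell, and so did Aldh18a1, Cth and Asns. Psat1, the aminotransferase of the serine route (chr19:15904678-15947337, mm10), had 3178, 3367 and 3574 normalised reads in null libraries at day 5, against 4906, 5146 and 5659 in floxed libraries. Its log2 change was -0.63 ± 0.12 (adjusted p = 0.00223). Phgdh, which starts serine synthesis from a glycolytic intermediate, had 3625, 4116 and 4427 in null libraries, against 4739, 4801 and 5987 in floxed libraries, with a log2 change of -0.35 ± 0.10 (adjusted p = 0.0271). Psph, which takes the last step to serine, had 458, 466 and 517 in null libraries, against 584, 597 and 647 in floxed libraries, with a log2 change of -0.34 ± 0.11 (adjusted p = 0.0297). All enzymes of the serine route were thus lower, with no overlap between null and floxed libraries for any of them.

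Shmt2, the mitochondrial enzyme that turns serine into glycine and a one-carbon unit, had 1837, 1697 and 1573 normalised reads in null libraries at day 5, against 2298, 2256 and 2233 in floxed libraries (log2 change -0.41 ± 0.10, adjusted p = 0.0103). Mthfd2, which handles that unit in the mitochondrion, had 660.1, 551 and 580.3 in null libraries, against 1302, 1217 and 1073 in floxed libraries. Its mean in null embryoid bodies was 49.9% of the floxed mean (log2 change -1.0 ± 0.21, adjusted p = 0.00412). Aldh18a1, which makes the precursor of proline from glutamate (chr19:40550257-40588463, mm10), had 1645, 1806 and 1994 in null libraries, against 2701, 3122 and 3182 in floxed libraries. With a log2 change of -0.73 ± 0.10 it had the smallest adjusted p of the 35 genes (0.000304). Cth, which makes cysteine from cystathionine, had 168, 96.7 and 103 in null libraries, against 464, 234 and 308 in floxed libraries. Its log2 change of -1.43 ± 0.38 (adjusted p = 0.0161) was the largest fall of all 35 genes, with a standard error exceeded by that of Slc7a11 alone. Asns, which makes asparagine and is among the best known targets of Atf4, had 2991, 3084 and 3083 in null libraries, against 4125, 4365 and 3905 in floxed libraries (log2 change -0.44 ± 0.10, adjusted p = 0.00701).

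Pycr1 and Got1 had changes above 0 and were not called at day 5. Pycr1, which completes proline synthesis and lies on chromosome 11, averaged 351 ± 114 normalised reads in null and 255 ± 32.0 in floxed embryoid bodies (log2 change 0.42 ± 0.23, adjusted p = 0.208). Got1, the cytosolic aspartate aminotransferase, averaged 2131 ± 101 in null and 1935 ± 111 in floxed embryoid bodies (log2 change 0.14 ± 0.09, adjusted p = 0.254). Cth was no longer called without null day 5 replicate 2 (adjusted p = 0.0585) or 3 (0.0527) or floxed day 5 replicate 1 (0.0672), and Phgdh without null day 5 replicate 1 (0.101) or 2 (0.0572) or floxed day 5 replicate 3 (0.110) or with the 6 day 5 libraries fitted alone (0.0575). Psph was not called without null day 5 replicate 1 (0.0840) or 2 (0.0842) or floxed day 5 replicate 2 (0.0526) or 3 (0.0960) or with upper-quartile scaling (0.0584).

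Of the transporters, Slc7a3, an importer of arginine and lysine, fell. It had 798, 499.8 and 586 normalised reads in null libraries at day 5, against 1705, 878 and 1420.3 in floxed libraries, and its log2 change was -1.06 ± 0.26 (adjusted p = 0.0103). Slc7a1, which carries the same amino acids, averaged 1027 ± 160 in null and 1048 ± 43.6 in floxed embryoid bodies (log2 change -0.04 ± 0.14, adjusted p = 0.865). Slc7a5 and Slc3a2 are the light and the heavy chain of the exchanger that brings in leucine. Slc7a5 averaged 2428 ± 208 in null and 2523 ± 111 in floxed embryoid bodies, and Slc3a2 averaged 2571 ± 104 and 2804 ± 130 in null and floxed embryoid bodies. Neither was called (adjusted p = 0.735 and 0.429, log2 changes -0.06 ± 0.11 and -0.12 ± 0.11). Slc1a5, a glutamine transporter, averaged 1106 ± 15.4 in null and 1249 ± 84.4 in floxed embryoid bodies, with a log2 change of -0.17 ± 0.12 (adjusted p = 0.299). For Slc3a2 and Slc1a5 every null library was nonetheless below every floxed library.

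Slc1a4, a transporter of alanine, serine and cysteine, had 673, 661 and 597 normalised reads in null libraries at day 5, against 964, 904 and 752 in floxed libraries. The libraries did not overlap, and the log2 change was -0.43 ± 0.17 (adjusted p = 0.0718). The fit with the replicate number as a block called it lower (adjusted p = 0.00502), and so did the fit with chromosome 11 centred on no genotype difference (log2 change -0.76, adjusted p = 0.00680). It was also called lower with DESeq2 (0.0460), with the 6 day 5 libraries fitted alone (0.0291, and 0.00598 with the block) and without floxed day 3 replicate 3 (0.0175) or both day 3 libraries numbered 3 (0.00948).

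The synthetases join amino acids to their tRNAs. At day 5 the log2 changes of all 12 lay between -0.52 and -0.20, and 10 of them fell. Mars, for methionine, had 3472, 3412 and 3593 normalised reads in null libraries at day 5, against 4746, 4639.6 and 4559 in floxed libraries (log2 change -0.41 ± 0.07, adjusted p = 0.000917). Wars, for tryptophan, had 2227, 2229.9 and 2202 in null libraries, against 2832, 2924 and 2904 in floxed libraries (log2 change -0.38 ± 0.07, adjusted p = 0.00287). Aars, for alanine, had 6436, 5913 and 6081 in null libraries, against 9041, 7709.8 and 7966 in floxed libraries (log2 change -0.42 ± 0.09, adjusted p = 0.00389). In none of these genes did a null library reach the lowest floxed one. Gars, for glycine, had 6467, 6771 and 6676 in null libraries, against 8969, 8715 and 8641 in floxed libraries (log2 change -0.40 ± 0.08, adjusted p = 0.00473). Tars, for threonine, had 3077, 3177 and 3050.3 in null libraries, against 4316, 4002 and 3962 in floxed libraries (log2 change -0.40 ± 0.08, adjusted p = 0.00498). Among the synthetases with a promoter window, Aars, Gars, Iars, Tars and Yars held the letters TGATGNAA, and Eprs, Mars and Sars did not. The part of these letters in the falls was not tested.

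Cars, for cysteine, showed the largest fall of the synthetases. It had 1463, 1391 and 1489 normalised reads in null libraries at day 5, against 2161, 2152 and 1912 in floxed libraries (log2 change -0.52 ± 0.11, adjusted p = 0.00603). Yars, for tyrosine, had 2309, 2257 and 2371 in null libraries, against 3226, 3130.5 and 2852 in floxed libraries (log2 change -0.41 ± 0.09, adjusted p = 0.00698). Nars, for asparagine, the product of Asns, had 4538, 4666 and 4356 in null libraries, against 6916, 6169.7 and 5445 in floxed libraries (log2 change -0.44 ± 0.12, adjusted p = 0.0181). In these genes too the lines did not overlap. Eprs, a fusion enzyme for glutamate and proline, had 12074, 12100.3 and 11292 in null libraries, against 15073, 14280.0 and 12867 in floxed libraries (log2 change -0.25 ± 0.07, adjusted p = 0.0235). Lars, for leucine, had 5405, 5839 and 5521 in null libraries, against 6974, 6957 and 6382 in floxed libraries (log2 change -0.28 ± 0.09, adjusted p = 0.0336). Eprs and Lars had the smallest of the called falls among the synthetases.

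Iars, for isoleucine, averaged 4063 ± 557 normalised reads in null and 4676 ± 631 in floxed embryoid bodies at day 5, and Sars, for serine, averaged 4781 ± 187 and 5529 ± 341 in null and floxed embryoid bodies. They were not called (log2 changes -0.20 ± 0.12 and -0.21 ± 0.12, adjusted p = 0.217 and 0.226), although Sars was called lower with the block within the 6 day 5 libraries (0.0356) and without both day 3 libraries numbered 3 (0.0318). With the block over all 12 libraries Sars was not called (0.0651). Its null and floxed libraries did not overlap. Nars was not called without null day 5 replicate 3 (adjusted p = 0.0564) or floxed day 5 replicate 1 (0.0751), and Eprs without null day 5 replicate 3 (0.0817) or floxed day 5 replicate 1 (0.0949) or 2 (0.0617), with upper-quartile scaling (0.0592) or with the 6 day 5 libraries fitted alone (0.0536). Lars was not called without null day 5 replicate 1 (0.0895) or 3 (0.0826) or floxed day 5 replicate 1 (0.0966) or 2 (0.0861) or with upper-quartile scaling (0.0760).

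**Figure D2:**
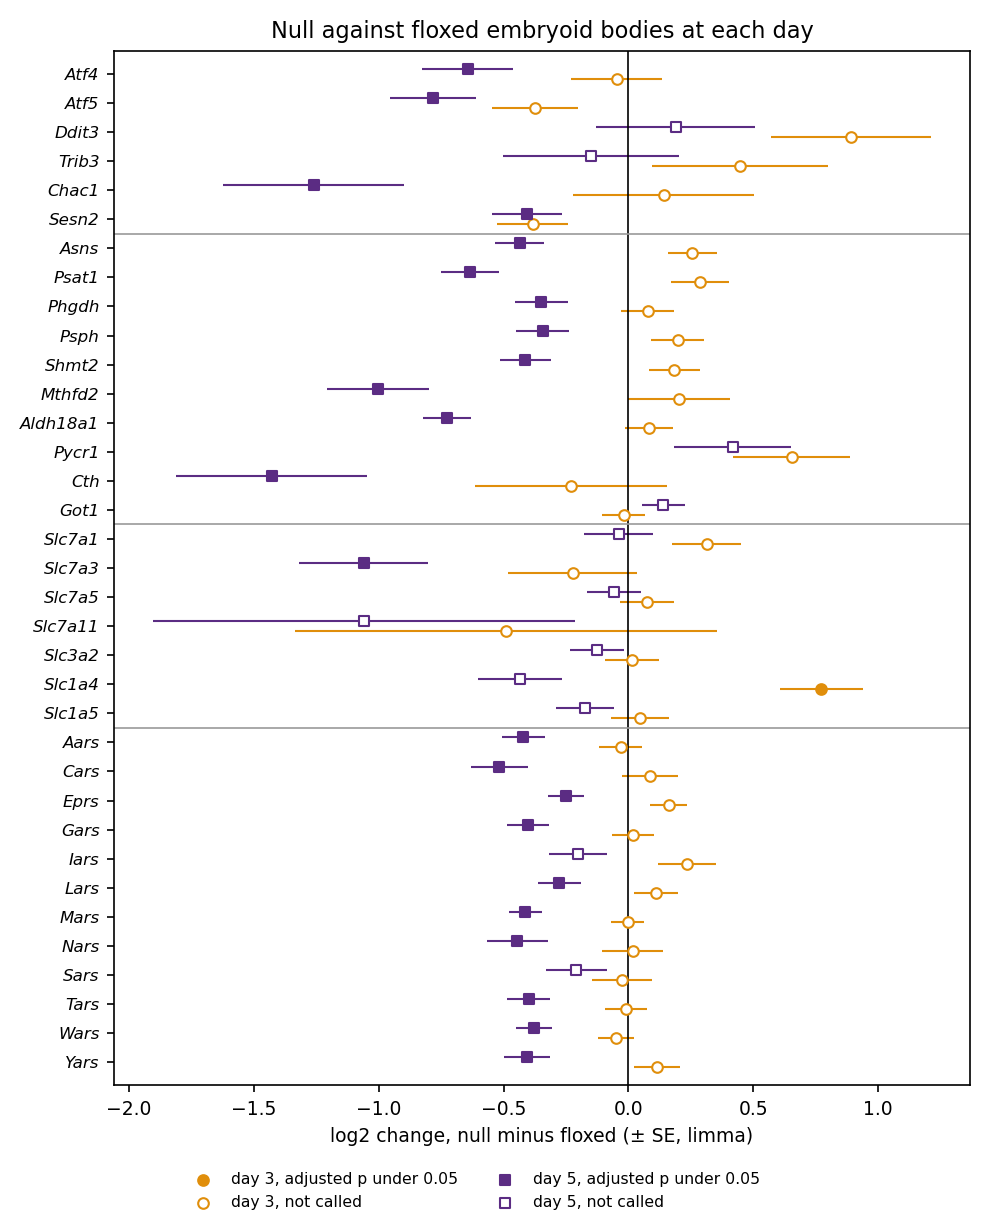
Log2 change, null minus floxed, of each of the 35 genes at day 5 (squares) and day 3 (circles), with bars for the SE from limma and filled symbols for an adjusted p under 0.05. The 23 filled squares all lie left of 0, between -1.43 and -0.25, and the single filled circle, Slc1a4, lies right of 0.

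At day 3 the fit that takes no account of the library numbers called few of these genes between the lines. Of the 35, 1 gene rose and 0 fell, where 4.09% of all genes tested were higher and 2.03% lower in null embryoid bodies (6.12% in either direction, 1041 genes). At an unadjusted p under 0.05, 7 were higher and 2 lower, where 3842 of the 17000 genes tested passed in either direction. Both edgeR and DESeq2 called 1 higher and 0 lower. Over all genes edgeR called 664 of 17000 higher and 343 lower, and DESeq2 called 1025 of 16991 higher and 678 lower. The median log2 change of the 35 genes was 0.08, with 12 below 0, against a median of -0.00 and 50.6% below 0 for all genes. That median became -0.06 without floxed day 3 replicate 3. The gene that rose was Slc1a4 (chr11:20302180-20332713, mm10), with 1848, 1849 and 1448 normalised reads in null libraries, against 1214, 1110.0 and 735 in floxed libraries (log2 change 0.77 ± 0.17, adjusted p = 0.0168). It was higher in 3 of 3 same-numbered pairs. With chromosome 11 centred its change was 0.41 (adjusted p = 0.194), and without null day 3 replicate 1 or 2 its adjusted p was 0.0584 and 0.0573. Over all genes the count of 1041 became 426 without null day 3 replicate 3, 442 without floxed day 3 replicate 1 and 650 without floxed day 3 replicate 2.

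The fit with a replicate block called 3 further genes at day 3, where it called 1866 of the 17000 genes tested (1096 higher and 770 lower). Ddit3 had 683, 442 and 344 normalised reads in null libraries at day 3, against 358, 323 and 139.7 in floxed libraries, and each null library was above its same-numbered floxed library (log2 change 0.89 ± 0.32, adjusted p = 0.120, and 0.0297 with the block). Pycr1, also on chromosome 11, had 587, 400.3 and 635 in null libraries, against 364, 264 and 397 in floxed libraries (log2 change 0.65 ± 0.23, adjusted p = 0.119, and 0.0459 with the block). Sesn2 went down instead, with 2538, 2446 and 2022 in null libraries and 3274, 3168 and 2689.9 in floxed libraries (log2 change -0.38 ± 0.14, adjusted p = 0.128, and 0.00390 with the block). These 3 were also called with the block within the 6 day 3 libraries, which called 3172 of all genes tested. That fit further called Psat1, Asns, Shmt2, Trib3, Iars and Slc7a1 higher and Slc7a3 and Atf5 lower in null embryoid bodies (adjusted p from 0.0114 to 0.0491). Atf4 itself had 6479, 6579 and 4323 in null libraries at day 3, against 7345, 6473 and 4265 in floxed libraries. Its log2 change was -0.05 ± 0.18 (adjusted p = 0.913), and the libraries overlapped.

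As differentiation went on, most of the genes came down in both lines. In the null line 31 of 35 fell by day 5 relative to day 3 and none rose, where 21.9% of all genes tested were lower and 22.6% higher. At an unadjusted p under 0.05 the counts were 31 and 0, where 8867 of the 17000 genes tested passed in either direction. With edgeR 29 were lower and 0 higher, where 3496 of all 17000 genes were lower and 3930 higher. With DESeq2 31 were lower and 0 higher, where 3693 of 16991 genes were lower and 3813 higher. In the floxed line 19 fell and 2 rose, where 19.2% of all genes tested were lower and 22.5% higher. The median log2 change of the 35 genes, day 5 minus day 3, was -0.84 in the null line and -0.37 in the floxed line, against 0.00 for all genes in each. In the null line all 35 changes were below 0, against 49.7% of all genes tested, and in the floxed line 31 were, against 50% of all. The count of 19 became 10 without floxed day 3 replicate 1 and 12 without floxed day 3 replicate 2. The summed level of the 6 pluripotent markers was also lower at day 5 than at day 3 in both lines, and its part in these falls was not tested. Not every marker in that sum fell. Of the 6, limma called 3 lower and 1 higher in the null line, and 3 lower and 2 higher in the floxed line.

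Of all genes tested, 21.9% were lower at day 5 than at day 3 in the null line and 19.2% in the floxed line. Of the 35 genes, 19 fell in both lines. Among them Slc7a3 had the largest fall, to a mean of 628 ± 153 normalised reads at day 5, against 3836 ± 965 at day 3, in the null line (log2 change -2.60 ± 0.26, adjusted p = 1.09e-05), and to 1335 ± 420.1 at day 5, against 4446 ± 942 at day 3, in the floxed line (log2 change -1.77 ± 0.26, adjusted p = 0.00017). Atf4 fell by 1.35 ± 0.18 on the log2 scale in the null line (adjusted p = 8.72e-05) and by 0.76 ± 0.18 in the floxed line (adjusted p = 0.00485). The chains of the leucine exchanger fell in both lines. Slc7a5 changed by -0.85 ± 0.11 in the null line and -0.71 ± 0.11 in the floxed line, and Slc3a2 by -0.84 ± 0.11 in the null line and -0.70 ± 0.11 in the floxed line (adjusted p from 6.03e-05 to 0.00025), and their interactions, -0.13 ± 0.15 and -0.14 ± 0.15, were not called (adjusted p = 0.752 and 0.738). A further 11 genes were called lower in the null line without a call in the floxed line. Of these 11, 9 were among the 23 of the 35 genes that were lower in null embryoid bodies at day 5. Both comparisons use the same null day 5 libraries, so this overlap is no independent result. With the replicate block 4 of the 11 were called lower in the floxed line too, namely Mthfd2 (adjusted p = 0.00520), Cth (0.00390), Nars (0.00497) and Sesn2 (0.000741). That block takes the library numbers to pair the days, which they did not clearly do in the floxed line. A call in 1 line alone is no test of a difference between the lines. Tars, another of the 11, had means of 3101 ± 66.9 at day 5 and 4189 ± 428 at day 3 in the null line (log2 change -0.43 ± 0.08, adjusted p = 0.00131), and of 4093 ± 194 at day 5 and 4217 ± 388 at day 3 in the floxed line (log2 change -0.04 ± 0.08, adjusted p = 0.740).

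The 2 genes that rose over time in the floxed line were Aldh18a1 and Wars. Aldh18a1 rose there by 0.44 ± 0.10 (adjusted p = 0.00249) and fell by 0.37 ± 0.10 in the null line (adjusted p = 0.00714). Wars had 2832, 2924 and 2904 normalised reads at day 5, against 2334, 2738 and 2331 at day 3, in the floxed line (log2 change 0.23 ± 0.07, adjusted p = 0.0220), and changed by -0.10 ± 0.07 in the null line (adjusted p = 0.290). The rise of Wars was not called without floxed day 3 replicate 1 (adjusted p = 0.0947) or 3 (0.0782) or floxed day 5 replicate 2 (0.0626) or 3 (0.0534). Atf5, Slc7a1 and Slc7a11 were called in neither line, although the fit with a replicate block called Slc7a11 lower in the null line (log2 change -1.47, adjusted p = 0.00761). It was also called lower there without null day 3 replicate 3 (log2 change -2.42, adjusted p = 0.0242), and in both lines without both day 3 libraries numbered 3 (adjusted p = 0.00226 in the null and 0.0109 in the floxed line).

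**Figure D3:**
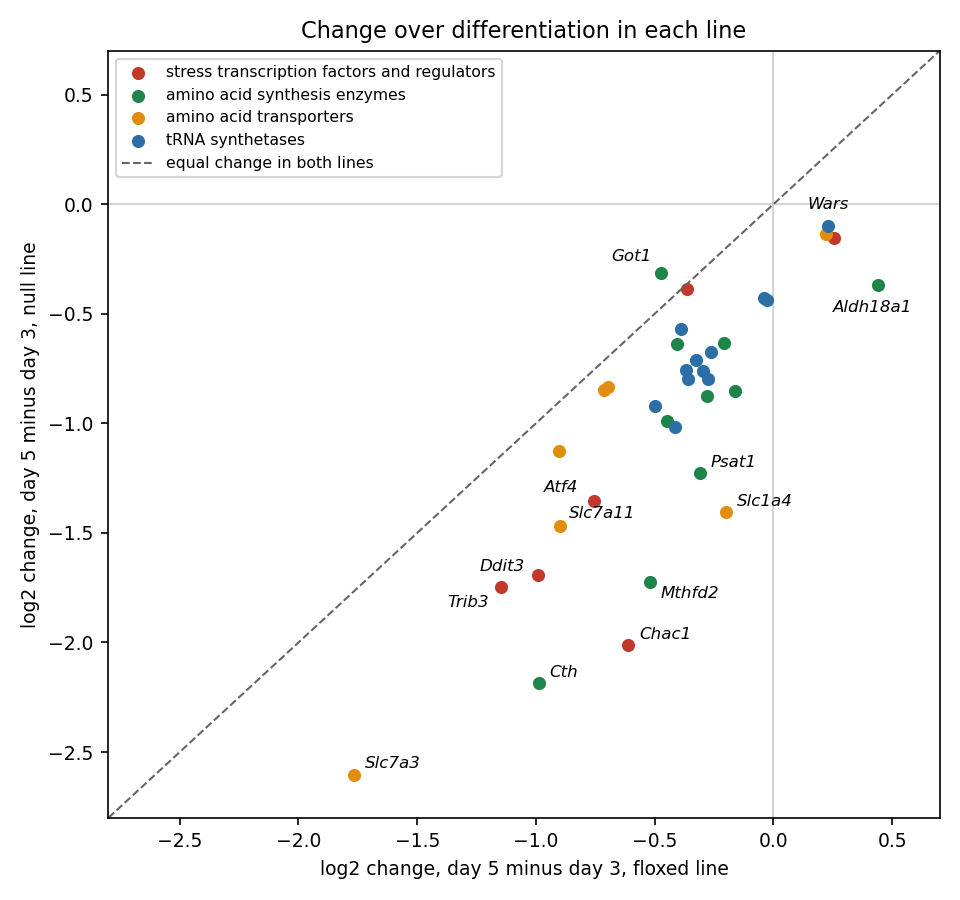
Log2 change from day 3 to day 5 (day 5 minus day 3) of each of the 35 genes in the null line (vertical axis) and the floxed line (horizontal axis), coloured by role, with the dashed line marking equal change. All points but Got1 lie below the dashed line, where the change is more negative in the null line.

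The difference between the lines' changes over time was tested by the genotype by day interaction. The interaction was below 0 for 34 of the 35 genes, Got1 being the exception (0.16 ± 0.12), against 52.2% of all genes tested, with a median of -0.44 for the 35 and -0.01 for all genes. It passed the threshold for 3 of the 35 genes, all below 0, where 0.229% of all genes tested (39 of 17000) did so in that direction and 0.247% in the other. The interaction contrasts the same 12 libraries as the comparisons above, and its sign adds no independent measurement to them.

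Aldh18a1 had an interaction of -0.81 ± 0.14 (adjusted p = 0.0345). Its values were 1645, 1806 and 1994 normalised reads in null and 2701, 3122 and 3182 in floxed libraries at day 5, and 2586, 2264 and 2176 in null and 2371, 2157 and 2093 in floxed libraries at day 3. The lines overlapped at day 3 and were apart at day 5. Psat1 had an interaction of -0.92 ± 0.16 (adjusted p = 0.0353), with 3178, 3367 and 3574 in null and 4906, 5146 and 5659 in floxed libraries at day 5, and 8459.9, 8442 and 6896 in null and 7528, 6735 and 5363 in floxed libraries at day 3. Slc1a4 had the largest of the called interactions, -1.21 ± 0.24 (adjusted p = 0.0457), being higher in null embryoid bodies at day 3 and having lower values there at day 5. Without replicate 1 or 2 of null day 3, of floxed day 3 or of null day 5, or without floxed day 5 replicate 3, none of these 3 genes was called, with adjusted p between 0.0611 and 0.115. Psat1 and Slc1a4 also missed the threshold without null day 5 replicate 3 (0.0646 and 0.103) or floxed day 5 replicate 1 (0.0508 and 0.0874), and Slc1a4 without floxed day 5 replicate 2 (0.0571) or with chromosome 11 centred (0.0509), edgeR (0.0503) or upper-quartile scaling (0.0533). Aldh18a1 missed it without both day 3 libraries numbered 3 (0.0537). With the replicate block 13 of the 35 genes had a called interaction, all below 0, which added Asns (adjusted p = 0.0121), Shmt2 (0.0114), Mthfd2 (0.00969) and the synthetases Cars, Eprs, Gars, Lars, Mars, Nars and Yars (0.0237 to 0.0467). That fit also called more interactions over the whole table, 443 of 17000 genes, of which 231 were below 0 and 212 above. It takes the library numbers to pair the days, which they did not clearly do in the floxed line.

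**Figure D4:**
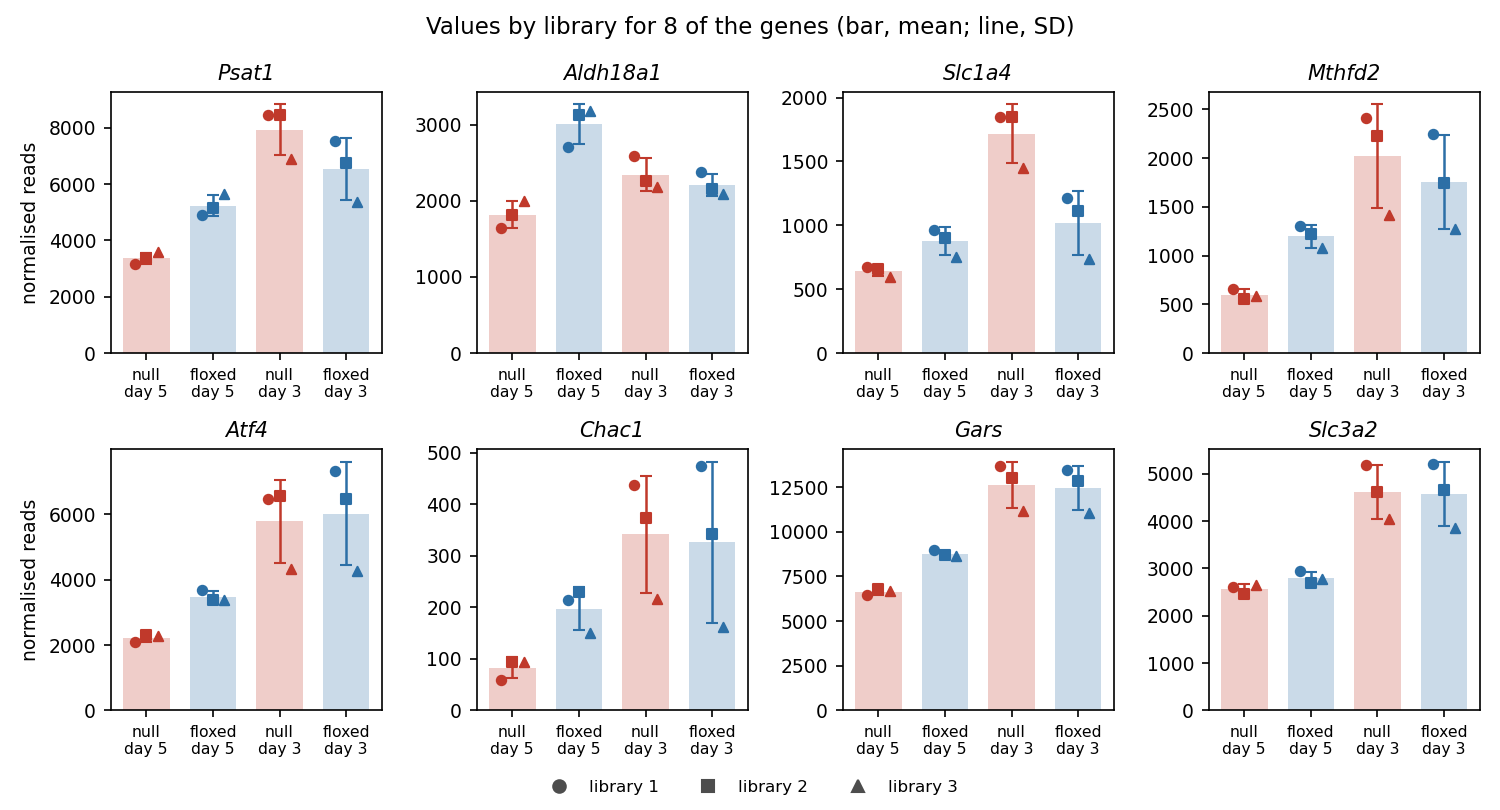
Normalised reads of 8 of the genes in each library (symbols, by library number), with bars for the group mean and lines for the SD (n = 3). All 8 genes are lower in every null day 5 library than in any floxed day 5 library. Slc1a4 is higher in the null line at day 3, and the means of Slc3a2 are close between the lines at both days.

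Other genes of the same pathways were counted in the same way at day 5, where 13.5% of all genes tested were lower and 13% higher. In lists this small, 3 of 11, 4 of 17 and 4 of 16 lower differ from that share by few genes. Of 11 further cytosolic synthetases and subunits of their complex, 3 fell and none rose, namely Farsb and Farsa, the chains of the phenylalanine enzyme (log2 changes -0.49 ± 0.07 and -0.29 ± 0.07, adjusted p = 0.000522 and 0.0131), and Vars, for valine (-0.26 ± 0.07, adjusted p = 0.0140). The median of these 11 was -0.18. Of 17 mitochondrial synthetases 4 fell and none rose, among them Cars2 (-0.50 ± 0.11, adjusted p = 0.00666), with a median of -0.03. Of 16 genes of the eIF2 kinases and the eIF2 cycle, 4 fell, including the eIF2 subunits Eif2s3x (-0.39 ± 0.09, adjusted p = 0.00965) and Eif2s2 (-0.46 ± 0.12, adjusted p = 0.0152), and 1 rose, Eif2ak2, the interferon-induced kinase PKR (0.49 ± 0.14, adjusted p = 0.0198).

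Of 13 other targets of Atf4, 4 fell and 1 rose at day 5, against 13.5% lower and 13% higher of all genes tested. Ddit4, an inhibitor of mTORC1 that is also induced by hypoxia, was higher in null embryoid bodies at day 5 (log2 change 1.32 ± 0.21, adjusted p = 0.000899). Its mean was 3423 ± 480.3 normalised reads in null and 1404 ± 405 in floxed embryoid bodies. It was also higher in null embryoid bodies at day 3 (0.86 ± 0.21, adjusted p = 0.0278), with means of 9287 ± 2462 in null and 5031 ± 711 in floxed embryoid bodies. Xpot, which exports tRNA from the nucleus, fell by 0.42 ± 0.08 on the log2 scale (adjusted p = 0.00325), and Slc38a2, a transporter of neutral amino acids, fell by 0.47 ± 0.11 (adjusted p = 0.00667).

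Of the genes of the neighbouring routes of folate and glycine, 8 of 12 were lower and none higher at day 5, with a median of -0.44, against 13.5% lower and 13% higher of all genes tested and a median of -0.02. Gldc, the glycine decarboxylase of the glycine cleavage system, averaged 2409.8 ± 207 normalised reads in null and 5077 ± 543 in floxed embryoid bodies (log2 change -1.07 ± 0.10, adjusted p = 3.94e-05), and Gcsh, the carrier protein of the same system, changed by -0.65 ± 0.08 (adjusted p = 0.000271). Of 14 other amino acid enzymes 8 fell and 1 rose, among the lower ones Prodh, which breaks proline down (-0.64 ± 0.11, adjusted p = 0.00140), the branched-chain aminotransferase Bcat1 (-1.07 ± 0.18, adjusted p = 0.00140) and the arginine synthesis enzyme Ass1 (-1.23 ± 0.22, adjusted p = 0.00176). Other transporters split, with 4 of 15 lower and 3 higher, against the same shares of all genes tested, and a median of 0.18.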

How the data were processed

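RNA-seq was analysed in 12 mouse embryoid body samples, 3 in each of 4 groups given by the sample titles. Per the labels, total RNA libraries were made with a stranded kit. The build mm10 and the tools DESeq 1.16.0, TopHat2 2.0.10, CASAVA 1.8.2 and HTSeq 0.6.0 are listed in the submitters' processing notes; what each did, and whether counting used the strand, are not given in the sources used here. Atf5, Ddit3, Psph, Shmt2, Mars and Yars share exon sequence with a gene on the opposite strand that is also in the table, so their values may hold reads of both. Ddit3 and Mars overlap each other by 68 bases.

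The deposited signal values are read counts that the authors divided by 1 size factor per library. All nonzero values were whole multiples of the value of 1 read (100%, tolerance 0.01), so whole reads were recovered for count tests. Symbols and positions came from GENCODE M21 by gene ID without version (18199 of 18269 IDs matched). The 35 genes and all gene lists were chosen with earlier results of these data known.

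Log2(value + 1) was fitted with limma 3.58.1 in R 4.3.3 (trend, 4 group means, all 12 libraries, degrees of freedom 8 residual plus 5 prior), after a filter that asked for a group mean of 10 or more in any group. A gene was called at a Benjamini-Hochberg adjusted p under 0.05 over all 17000 genes, two-sided. Fold changes on this scale understate changes of low genes, and values are mean ± SD (n = 3). The script was tested on simulated data. The values per sample are given for genes called in a genotype comparison or in the interaction, and of other lists at most 3 called genes of smallest adjusted p per genotype comparison were eligible to be named. The promoters printed were those of the at most 6 called genes of smallest adjusted p at day 5 that hold the motif, none on chromosome 18.

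Sample titles share replicate numbers across groups. Across genes, the deviations of a null library from its group mean and those of the floxed library of the same number correlated at r = 0.247 to 0.424 at day 5 and 0.270 to 0.372 at day 3, and at most 0.0268 and -0.0175 between different numbers, so the numbers pair the samples there, a hint from the data. Between days, same-numbered null libraries had r = 0.123 to 0.282 and different numbers at most 0.0521, while same-numbered floxed libraries had r = 0.0814 to 0.214 and different numbers up to 0.124, so the numbers do not clearly pair the days in the floxed line. Alternatives were edgeR 4.0.16 and DESeq2 1.42.0 on recovered reads, TMM and upper-quartile scaling, pseudocounts of 0.1 and 5, no filter and a filter at 50, a replicate block, each day or line fitted alone, chromosome 11 centred, and each library left out; added after the data were seen were chromosome 11 left out, the block within a day and both day 3 libraries numbered 3 left out. The values of 1 gene of the folate and glycine list are not reported here.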

Additional observations from a re-analysis of the deposited data

Results flagged for a closer look

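In 3 of the 35 genes the change from day 3 to day 5 differed between the null and the floxed line by a test of that difference (limma, genotype by day interaction, 3 libraries in each of 4 groups). Of all genes tested, 0.229% had a called interaction below 0. The interaction was -1.21 for Slc1a4, -0.92 for Psat1 and -0.81 for Aldh18a1 on the log2 scale. In each of them the change was more negative in the null line, as it was in 34 of the 35 genes. None of the 3 calls stayed under every alternative, and each was lost without some library.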

How the results depend on the processing

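No alternative turned the direction of a called gene among the 35. At day 5, 14 of the 23 called genes stayed called under every alternative, 9 lost the call without some library and 5 (Lars, Eprs, Sesn2, Psph and Phgdh) under some other setting. The number of genes called lower among the 35 at day 5 ran from 16 to 24 when 1 library was left out, and their median log2 change from -0.43 to -0.37; the median was -0.39 with TMM scaling, -0.36 with upper-quartile scaling and -0.39 with edgeR. At day 3 all genes called numbered 1703 with DESeq2, 1866 with the replicate block, 647 with 6 samples alone, 3172 with the block within the day, 458 with chromosome 11 centred, 388 with it left out, 250 without both libraries numbered 3, and 426 to 1135 without 1 library. Of the 35 genes, the number higher at day 3 was 3 with the block, 9 with the block within the day and 0 with 6 samples alone, chromosome 11 centred or left out (0 to 1 without 1 library); the number lower was 1 and 3 with the 2 forms of the block. The median at day 3 ran from -0.063, without floxed day 3 replicate 3, to 0.18. Over time the median of the null line ran from -0.93 to -0.75 without 1 library and was -0.93 without both day 3 libraries numbered 3; in the floxed line 10 to 27 genes were lower and 1 to 2 higher without 1 library, and 1 was higher without both. Interactions called over all genes numbered 511 with DESeq2, 443 with the block, 53 without both day 3 libraries numbered 3 and 3 to 115 without 1 library; among the 35 they numbered 12 with DESeq2, 13 with the block and 0 to 5 without 1 library. The causes were not tested. Between genotypes, the 2 forms of the replicate block changed no other call among the 35 than those of the genes named with them above. With 3 libraries of 1 line per group, a difference below the spread of these libraries was not detectable.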
